A study of Mus musculus with 6 samples.

Results

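The 3 wild type libraries of ovarian granulosa cells are described here on their own, as a transcriptome of cells 6 h after an ovulatory stimulus. They were taken by their title and genotype label and are 3 of the 6 samples of the series. The other 3 samples are granulosa cells of Gm12840-/- mice and are not analysed here. The mice were of strain C57BL/6 and at postnatal day 21. PMSG, a gonadotropin that acts mainly like FSH, was given at 5 IU. After 48 h the ovulatory stimulus followed, hCG at 5 IU, which acts like LH. The cells were taken 6 h after hCG. All 6 samples of the series were taken at that time, so induction of a gene by hCG cannot be tested here. Immature mice primed in this way grow a set of follicles in step, so the libraries stand for follicles driven by injected gonadotropins and not for a natural cycle. Whether a library came from 1 mouse or from a pool is not given in the sources used here, so the spread between libraries may be partly technical.

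Granulosa cells surround the oocyte inside the ovarian follicle. Under FSH they make oestradiol, inhibin and the receptor for LH. The LH surge, imitated by hCG, acts through cAMP and EGF-like ligands to switch on a short-lived programme: prostaglandin synthesis, a hyaluronan matrix around the oocyte, the progesterone receptor and its targets, and then the steroid enzymes of the luteal cell. In the mouse, 6 h after hCG lies before the follicle ruptures.

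The deposited values are FPKM, reads scaled to gene length and to a total set for each library. That total, worked out from the values, was 0.894, 0.939 and 1.12 times the gene-assigned reads of libraries 1, 2 and 3. It was therefore not the plain read number, and comparisons of FPKM between libraries rest on it. The libraries held 16609477, 17997837 and 19465847 reads assigned to genes, of which 97.0 to 97.7% fell on protein_coding genes. The libraries were not copies of each other: a chi-square test over genes gave 36.7 per degree of freedom between libraries 1 and 2, 255 between libraries 1 and 3 and 170 between libraries 2 and 3, where counting noise alone gives about 1. Library 3 stood apart. Mitochondrially encoded proteins took 2.05% of its reads, against 0.198% and 0.286% in libraries 1 and 2. Cytosolic ribosomal proteins took 4.64% of its reads, against 13.5% and 9.84%. Its FPKM summed over protein_coding genes to 272907, against 434237 and 390453.

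A gene was called on when it had at least 1 FPKM in each of the 3 libraries, and off when it had under 0.1 FPKM in each. Of 22058 protein_coding genes, 9693 were on, which is 43.9%, and 7041 were off, which is 31.9%. The other 5324 were low or mixed. Among the genes called off, 4900 were listed at 0 in all 3 libraries. With library 3 left out, 9922 genes were on. Transcripts were spread over a wide range. The means of 37 genes reached at least 1000 FPKM, and these genes held 20.9% of all FPKM. The next 565 genes, from 100 to 1000 FPKM, held 41.0%, and 3782 genes from 10 to 100 FPKM held 30.7%. The 10 highest genes of each library held 10.9% ± 1.07 of its FPKM (SD, n = 3) and the 100 highest held 33.5% ± 4.06 (SD, n = 3). Genes of high FPKM were short. The median gene length was 1359 bases in the group over 1000 FPKM and 5081 bases among genes of 1 to 10 FPKM. FPKM divides reads by gene length, so length enters the measure itself, and its part in this order was not tested.

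**Figure D1:**
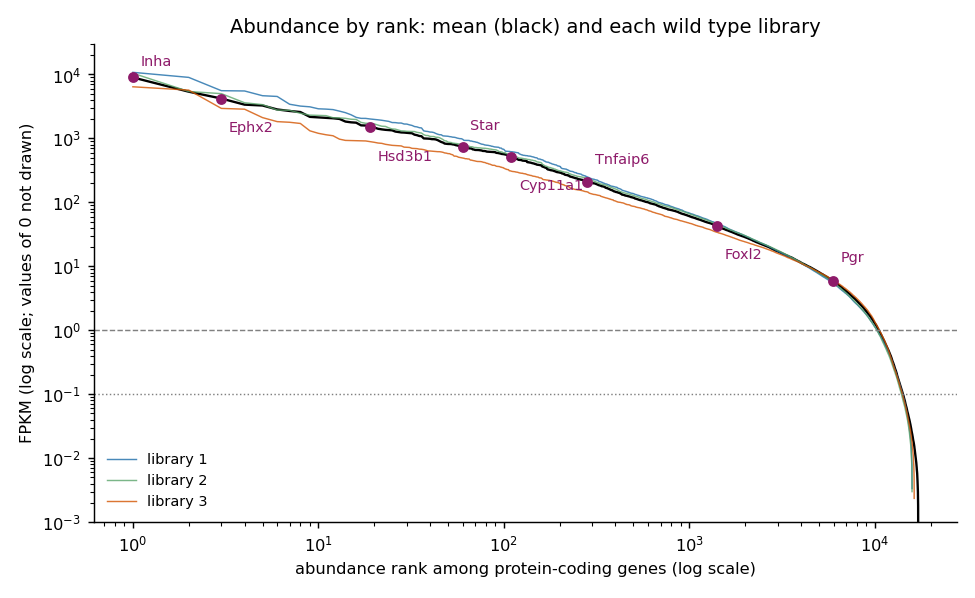
FPKM against abundance rank for protein_coding genes, both on log axes, as the mean of 3 libraries in black and each library in colour; dashed and dotted lines mark 1 and 0.1 FPKM. Inha is at rank 1, Star at rank 60, Tnfaip6 at rank 282, Foxl2 at rank 1407 and Pgr at rank 5976, and library 3 runs below the others over the most abundant genes.

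The most abundant protein_coding transcript was Inha, the alpha subunit shared by the inhibins. It stood at 10808, 10467 and 5701 FPKM in libraries 1, 2 and 3, a mean of 8992 ± 2855 (SD, n = 3). Its rank was 1 in libraries 1 and 2 and 2 in library 3, where only mt-Co1 was higher. Inha lies on chromosome 1 from 75507077 to 75510366 in GRCm38. The third place was held by Ephx2, soluble epoxide hydrolase, which hydrolyses epoxides of fatty acids. Ephx2 had 4658, 5020 and 2949 FPKM, and ranks of 5, 3 and 3. Its relative Ephx1, the microsomal enzyme, had 13.3, 6.83 and 8.25 FPKM, so that the Ephx2 mean was 444 times the Ephx1 mean. Inha exceeded Ephx2 1.93 to 2.32 times in every library.

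Among the 20 highest means, 10 were cytosolic ribosomal proteins or mt-Co1: Rplp1, Rpl41, Rps15, mt-Co1, Rpl36, Rpl8, Rplp0, Rps3a1, Rps14 and Rpl32. The other general genes there were Eef1a1, the elongation factor, at 2589 ± 411 FPKM (SD, n = 3), Fth1, ferritin heavy chain, at 2174 ± 920, Fau, a fusion of a ubiquitin-like protein and a ribosomal protein, at 2136 ± 1387, Tpt1 at 1786 ± 505, Sod1, the cytosolic superoxide dismutase, at 1763 ± 906, and Ybx1, an RNA-binding protein, at 1592 ± 301. The genes of the 20 with a more restricted use were Inha, Ephx2, Nts and Hsd3b1. Nts encodes the neuropeptide neurotensin and had 1986, 1982 and 837 FPKM. Hsd3b1, the enzyme that makes progesterone from pregnenolone, had 1631, 1553 and 1316 FPKM and was 19th by the mean. Sult1e1, oestrogen sulfotransferase, stood at rank 22 with 1768, 1462 and 926 FPKM. The order within the 20 was not firm: of the 19 neighbouring pairs, 2 kept the same order in all 3 libraries. Inha kept its place above Rplp1, and Rpl41 above Rps15. Leaving out library 3 kept 17 of the 20 genes in the list.

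**Figure D2:**
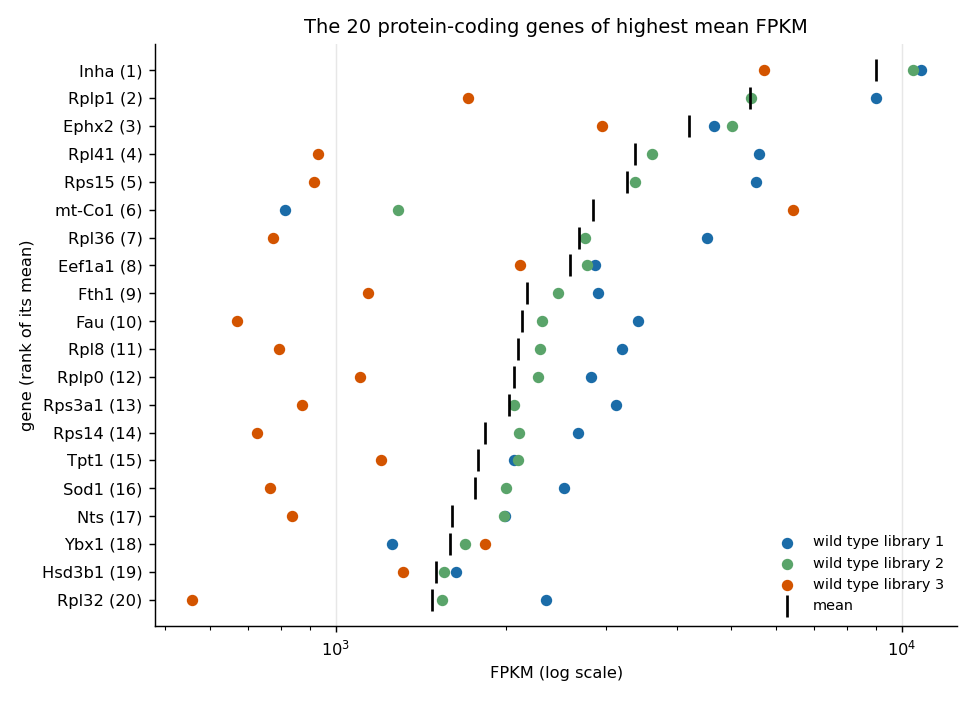
FPKM on a log axis for the 20 protein_coding genes of highest mean, each library as a coloured point and the mean as a black bar. Library 3 is the lowest of the 3 for each gene except mt-Co1 and Ybx1, where it is the highest, and the Inha points at 10808, 10467 and 5701 FPKM lie to the right of the Ephx2 points at 4658, 5020 and 2949 FPKM.

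The 5 genes taken as markers of these cells were all on. Star, which carries cholesterol into mitochondria, had 827, 721 and 620 FPKM and stood at rank 60 of 22058. Cyp11a1, the side-chain cleavage enzyme, had 708, 466 and 390 FPKM and stood at rank 110. Tnfaip6, which links the hyaluronan matrix of the expanding cumulus, had 246, 184 and 205 FPKM and stood at rank 282. Foxl2, the transcription factor that holds granulosa cell identity, had 43.0, 45.5 and 40.05 FPKM and stood at rank 1407. The order was the same in the 3 libraries: in each, Inha was above Star, Star above Cyp11a1, Cyp11a1 above Tnfaip6 and Tnfaip6 above Foxl2. The genes nearest in rank were mostly general ones. Rps27a and Rps9 stood beside Star, Serpine2, Ndufa2 and Rpl18 beside Cyp11a1, Slc7a8, Hspd1 and Rps13 beside Tnfaip6, and Kpnb1, Gm10131 and Sap30 beside Foxl2. Rank here is by mean FPKM over the 3 libraries, and likeness of rank says nothing of shared control.

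All 24 genes of the granulosa identity list were on, against 43.9% of all genes, with a median of 41.1 FPKM. This list and those below were chosen with earlier results of these data known. Their counts are therefore descriptions and not tests, and each is to be read beside the same 43.9%. After Inha the highest were Serpine2, a protease inhibitor, with 620, 597 and 350 FPKM, and Amh, the anti-Müllerian hormone, with 764, 494 and 250 FPKM. Hsd17b1, which reduces oestrone to oestradiol, had 305, 302 and 162 FPKM. Gja1, the main gap junction protein of these cells, had 122, 89.2 and 139 FPKM. Library 3 was the lowest for Serpine2, Amh and Hsd17b1 and the highest for Gja1. The lowest members were Wt1 at 2.28 ± 1.05 FPKM, Nr0b1 at 2.58 ± 1.22 and Kitl at 3.91 ± 2.33 (SD, n = 3). Cyp19a1, the aromatase that FSH induces, was also low, with 14.4, 7.16 and 5.39 FPKM. Hsd3b1 exceeded Cyp19a1 113 to 244 times in the individual libraries. All 17 genes known to respond to the oocyte in cumulus cells were on, with a median of 17.8 FPKM. Of 18 genes on the list named FSH-induced preovulatory genes, 17 were on, and Gria1 was listed at 0 in each library. That list includes Amh and Akr1c18, and induction by FSH was not tested.

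The inhibin subunits were unequal. Inhbb, the beta B subunit, had 63.7, 71.0 and 77.6 FPKM and Inhba, the beta A subunit, had 43.3, 26.8 and 48.0 FPKM. Inha exceeded Inhbb 73.5 to 170 times and Inha exceeded Inhba 119 to 390 times. Inhbb was above Inhba in every library, by 1.47 to 2.65 times. Fst, follistatin, which binds activin, had 92.2, 107 and 130 FPKM. Of 11 genes of the inhibin, activin and follistatin list, 9 were on. The receptor Acvr2a and the follistatin relative Fstl3 were low or mixed, and Acvr2b stood at 2.05 ± 0.436 FPKM (SD, n = 3).

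Of 48 transcription factors known from granulosa cells, 44 were on, against 43.9% of all genes, with a median of 24.4 FPKM. The highest was Cebpb, a factor needed for luteinisation, with 788, 1043 and 623 FPKM. The AP-1 factors followed. Junb had 508, 794 and 681 FPKM, Fos had 330, 481 and 893 FPKM, and Jun had 339, 542 and 809 FPKM. Cited2, a coactivator partner, had 372, 541 and 731 FPKM. Fos, Jun and Cited2 were lowest in library 1 and highest in library 3, so their order against Cebpb and Junb changed between libraries. Cebpa, which acts beside Cebpb, had 151, 194 and 156 FPKM, and Cebpb exceeded it 4.003 to 5.39 times. The orphan receptor Nr5a1, a regulator of steroid genes, had 53.4, 53.7 and 53.3 FPKM, and its relative Nr5a2 had 53.0, 42.6 and 48.1 FPKM. Nr5a1, Nr5a2 and Foxl2 lay close together, and Nr5a1 was above Foxl2 in each library. Runx1 had 26.5, 34.7 and 41.3 FPKM and Runx2 had 18.8, 24.3 and 39.5 FPKM. Gata6 had 20.8, 29.7 and 59.6 FPKM and Gata4 had 9.39, 16.5 and 40.9 FPKM, with Gata6 1.46 to 2.21 times higher. At the low end, Nr4a3 had 1.05, 1.31 and 1.44 FPKM, Zfpm2 was low or mixed at 0.918, 1.04 and 2.07 FPKM, and Lhx9, a factor of the early gonad, was the single member called off, at 0.0709, 0.0499 and 0.0627 FPKM. Of the 47 neighbouring pairs in this order, 13 were the same in all 3 libraries.

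The promoters of 5 abundant genes are shown because their products differ in kind: 2 transcription factors, 2 steroid enzymes and a matrix protein. Sequences come from RefSeq, build GRCm38.p6, and are printed 5′ to 3′ on the strand of the gene, up to the base before the start of the deposited gene model or of the RefSeq model, whichever came first. Capitals mark matches on either strand or, for the TATA box, on the strand of the gene: the TATA box TATAAA, the core TGACG of the cAMP response element and its full form TGACGTCA, which contains it, the AP-1 site TGAGTCA, the nuclear receptor site AGGTCA, the NR5A site CAAGGTCA, which contains AGGTCA, and the GATA site AGATAA. The Fos segment is chr12:85473640-85473889 on the plus strand, Cebpb chr2:167688665-167688914 on the plus strand, Tnfaip6 chr2:52037863-52038008 on the plus strand, Hsd3b1 chr3:98859795-98860044 on the minus strand and Sult1e1 chr5:87591612-87591861 on the minus strand.
Fos: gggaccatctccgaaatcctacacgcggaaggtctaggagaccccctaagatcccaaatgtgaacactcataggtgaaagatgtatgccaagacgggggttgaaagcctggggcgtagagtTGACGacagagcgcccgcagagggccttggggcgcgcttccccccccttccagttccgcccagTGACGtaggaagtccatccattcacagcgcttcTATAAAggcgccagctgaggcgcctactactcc
Cebpb: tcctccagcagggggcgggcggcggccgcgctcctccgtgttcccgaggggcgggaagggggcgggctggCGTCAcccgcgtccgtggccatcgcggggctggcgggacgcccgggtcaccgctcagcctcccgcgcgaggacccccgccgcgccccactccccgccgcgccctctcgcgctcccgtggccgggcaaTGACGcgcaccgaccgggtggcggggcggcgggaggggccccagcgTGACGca
Tnfaip6: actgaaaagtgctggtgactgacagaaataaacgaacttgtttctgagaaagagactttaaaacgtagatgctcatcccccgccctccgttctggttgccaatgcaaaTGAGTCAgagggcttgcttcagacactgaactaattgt
Hsd3b1: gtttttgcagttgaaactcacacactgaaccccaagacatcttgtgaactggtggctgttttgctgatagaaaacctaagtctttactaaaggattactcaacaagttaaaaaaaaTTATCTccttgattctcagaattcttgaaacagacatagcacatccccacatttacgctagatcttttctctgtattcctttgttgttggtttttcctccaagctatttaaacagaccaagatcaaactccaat
Sult1e1: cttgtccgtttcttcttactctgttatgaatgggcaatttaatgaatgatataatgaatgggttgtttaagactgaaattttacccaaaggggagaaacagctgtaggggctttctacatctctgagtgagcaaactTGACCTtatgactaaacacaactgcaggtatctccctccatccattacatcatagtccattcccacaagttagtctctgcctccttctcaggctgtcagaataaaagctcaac

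The TGACG core was found 2 times in the Fos segment, which also held a TATA box, and 3 times in the Cebpb segment. The Tnfaip6 segment held an AP-1 site, the Hsd3b1 segment a GATA site and the Sult1e1 segment a nuclear receptor site. RefSeq windows of 300 bases, from 250 before to 50 after the start, matched 16395 of 22006 symbols and gave 19999 windows. Windows with the TGACG core made up 24.2% of all windows, 32.6% of those of on genes and 12.5% of those of off genes. Among windows of the early-response list 64.0% held it, 16 of 25 windows from 19 genes. A gene with several starts gives several windows, so a site can count more than once. Among windows of cytosolic ribosomal proteins the share was 44.8%. By abundance it was 51.9% for genes over 1000 FPKM, 14 of 27 windows, 40.6% for genes of 100 to 1000 FPKM and 33.9% for genes of 10 to 100 FPKM. Base composition moved with the shares of the on, off and early-response windows. The mean GC content was 61.2% ± 9.34 in windows of on genes, 47.7% ± 10.96 in those of off genes and 63.4% ± 7.85 in those of early-response genes (SD over windows). By abundance it did not: the means were 56.6% over 1000 FPKM, 60.9% from 100 to 1000 FPKM and 61.6% from 10 to 100 FPKM. The part of base composition was not tested. The TATA box was found in 4.28% of on windows and 15.8% of off windows, against 7.93% of all. By abundance it was found in 11.1% of windows of genes over 1000 FPKM, 3 of 27, in 9.21% for genes of 100 to 1000 FPKM and in 3.93% for genes of 10 to 100 FPKM. The AP-1 site stood in 5 of 39 windows of the LH-induced list, which came from 28 genes. That is 12.8%, against 4.66% of all windows. A match is a run of letters, not a bound site.

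Of 39 genes known to be induced by LH in granulosa cells, 36 were on, against 43.9% of all genes, with a median of 36.9 FPKM. Besides Ephx2 and Sult1e1 the highest were Timp1, an inhibitor of metalloproteases, with 1259, 1077 and 397 FPKM, and Cebpb and Star. Rgs2, a brake on G protein signalling, had 612, 801 and 563 FPKM. Ptx3, a matrix protein of the cumulus, had 124, 137 and 163 FPKM. Errfi1, a feedback inhibitor of the EGF receptor, had 77.2, 117 and 169 FPKM. The 3 lowest were Sphkap, listed at 0 in each library, Il11 at 0.301, 0.323 and 0.319 FPKM, and Akap12 at 0.625, 0.504 and 1.68 FPKM. Pgr, the progesterone receptor that the surge induces for a few hours, was low at 7.54, 3.82 and 6.19 FPKM, rank 5976. It was 0.203 to 0.392 times the level of Esr2, the oestrogen receptor of granulosa cells.

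Of the 19 genes of the progesterone receptor target list, which includes Pgr itself, 18 were on, against 43.9% of all genes. Whether their levels depend on the receptor was not tested. Mt1, a metallothionein, had 1741, 1726 and 579 FPKM. Ctsl, cathepsin L, had 676, 820 and 923 FPKM. Cited4 had 179, 291 and 129 FPKM. Cxcr4, a chemokine receptor, had 85.8, 136 and 182 FPKM. Mt1 and Cited4 were lowest in library 3, and Ctsl and Cxcr4 were highest there. Adamts1, the protease that cuts versican, had 33.8, 60.9 and 147 FPKM. Edn2, the endothelin made just before ovulation, had 6.45, 5.26 and 5.55 FPKM and did not vary beyond counting error. Il6 stood at 1.03, 1.36 and 1.36 FPKM, and Sema3a was low or mixed at 0.957, 1.08 and 1.54 FPKM. Rhox8, a homeobox gene, varied widely with 78.2, 30.4 and 3.81 FPKM, a range of 20.6 times.

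Early-response genes, whose transcripts usually appear within minutes of a stimulus, were abundant 6 h after hCG. Of 24 genes 23 were on, against 43.9% of all genes, the median was 93.7 FPKM, and 15 were among the 1000 highest genes. Ier2 led with 1772, 1781 and 695 FPKM. Ier3 had 310, 469 and 380 FPKM. Klf2 had 179, 479 and 286 FPKM, and Egr1 had 173, 289 and 435 FPKM. Btg2, Zfp36 and Dusp1, which end growth or kinase signals, had means of 174 ± 79.7, 133 ± 70.9 and 102 ± 59.2 FPKM (SD, n = 3). Nr4a1 had 106, 156 and 147 FPKM, while its relatives Nr4a2 and Nr4a3 were low, with means of 2.57 ± 0.652 and 1.27 ± 0.201 FPKM (SD, n = 3). Egr2 was listed at 0 in all 3 libraries, although Egr1 and Egr3 were on. The spread was wide, with a median coefficient of variation, the SD as a share of the mean, of 43.0%. The median log2 ratio of library 3 to the mean of libraries 1 and 2 was 0.54 over the 23 on genes. Hspa1a, Hspa1b and Fos can also respond to handling of cells: Hspa1b had 54.4, 99.7 and 282 FPKM and Hspa1a had 36.5, 71.6 and 199 FPKM, in the same order of libraries as Fos. The part of handling in these levels was not tested.

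Of 20 NF-kB and cytokine genes 10 were on, a share near the 43.9% of all genes, and 15 were on under TPM, in which each library is scaled to the same sum. Under TPM 11425 of all 22058 genes were on, so 1 TPM was a lower bar than 1 FPKM. Tnf was off.

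The hyaluronan matrix list was mixed: 10 of 16 genes were on. Vcan, versican, had 175, 194 and 368 FPKM and stood with Tnfaip6 and Ptx3 well above the rest. Ptgs2, the inducible cyclooxygenase, had 37.8, 29.7 and 43.6 FPKM. Has2, the enzyme that makes the hyaluronan of the cumulus, had only 2.43, 2.82 and 2.69 FPKM, rank 8255, and did not vary beyond counting error. Has1 had 1.45, 1.92 and 2.83 FPKM and Has3 0.137, 0.139 and 0.223 FPKM. Of the serum-derived inter-alpha-trypsin inhibitor chains, Itih2 stood at 5.92 ± 3.15 FPKM (SD, n = 3), Itih3 was under 0.12 FPKM in each library, Itih1 was listed at 0 in each, and Ambp, which encodes their light chain, was off.

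EGF-like ligands carry the LH signal between follicle cells. Of 13 ligand, receptor and processing genes listed, 12 were matched, and 8 of these were on, against 43.9% of all genes. Areg, another EGF-like ligand, is not among the matched genes, so its level is not given and the ligands below are not a full ranking. Btc had 64.1, 47.7 and 51.7 FPKM and Ereg had 36.9, 33.0 and 36.7 FPKM, so the 2 did not overlap. Epgn had 9.69, 11.001 and 19.6 FPKM and Hbegf 6.02, 4.79 and 5.70 FPKM. Among the receptors, Erbb2 had 10.9, 10.2 and 11.2 FPKM and Egfr 2.54, 4.62 and 6.51 FPKM, while Erbb3 was low or mixed and Erbb4 was off. Of 17 prostaglandin genes 11 were on, against the same share of all genes. Ptgis, prostacyclin synthase, had 89.3, 45.4 and 26.3 FPKM, and Ptges, the inducible prostaglandin E synthase, had 43.5, 29.4 and 23.6 FPKM. Hpgd, which degrades prostaglandins, had 15.3, 11.4 and 15.3 FPKM. None of the 4 prostaglandin E receptors reached 1 FPKM in a library: Ptger4 had 0.760, 0.828 and 0.986 FPKM, Ptger2 0.545, 0.638 and 0.600, Ptger3 0.545, 0.499 and 0.419, and Ptger1 0.296, 0.0650 and 0.0671. Under TPM, a lower bar by which 11425 of all 22058 genes were on, 15 of the 17 prostaglandin genes were on, Ptger2, Ptger3 and Ptger4 among them.

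Of 18 steroid synthesis genes 15 were on, and they fell into steps of very different height. Hsd3b1 was above Star, and Star above Fdx1, in every library. Fdx1, the ferredoxin that passes electrons to Cyp11a1, had 625, 548 and 415 FPKM and Fdxr, its reductase, had 260, 295 and 137 FPKM. The mean of Fdx1, 529 ± 106 FPKM, was within the spread of that of Cyp11a1, 522 ± 166 (SD, n = 3). Cyp17a1, the theca enzyme that makes androgens, had 49.8, 17.6 and 13.7 FPKM, and Cyp11a1 exceeded it 14.2 to 28.5 times. Hsd3b6 was under 1 FPKM in each library, Srd5a2 was low or mixed and listed at 0 in library 3, and Cyp21a1, the adrenal enzyme, was off. Of the genes that inactivate or conjugate steroids, 7 of 10 matched were on. After Sult1e1 came Akr1cl with 496, 324 and 148 FPKM and Hsd17b11 with 111, 149 and 128 FPKM. Akr1c18, which removes progesterone at the end of luteal life, had 17.9, 21.3 and 17.5 FPKM. All 20 genes of the luteal cell list were on, but that list shares Hsd3b1, Star, Cyp11a1 and Cyp11b1 with the steroid list. Sfrp4, a secreted modulator of WNT signals, had 753, 547 and 677 FPKM, and Scarb1, the receptor for high-density lipoprotein, had 233, 183 and 242 FPKM.

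All 24 genes of cholesterol synthesis were on, with a median of 33.3 FPKM. Insig1, which senses sterols, had 91.5, 135 and 136 FPKM, Msmo1 97.1, 133 and 86.3 FPKM, and Cyp51 105, 111 and 95.6 FPKM. The lowest was Fdps, with 2.48, 2.84 and 3.04 FPKM; it overlaps a small nuclear RNA gene, Gm22935, and a protein_coding gene, Gm43738, in the deposited table, so its level is uncertain. Of 19 genes of uptake and storage 16 were on. Apoe varied from 84.2 to 386 FPKM. Plin1, the perilipin of fat cells, was off, while Plin2 had 20.8, 15.9 and 12.7 FPKM and Plin3 19.9, 23.2 and 21.5 FPKM.

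Both gonadotropin receptors were on. Lhcgr had 87.6, 46.3 and 46.5 FPKM and Fshr had 24.4, 20.6 and 26.5 FPKM, so that Lhcgr exceeded Fshr 1.75 to 3.59 times. Of 34 matched genes of the receptor and cAMP list 17 were on, a share near the 43.9% of all genes. Among protein kinase A subunits Prkar1a, a regulatory one, had 113, 114 and 115 FPKM and Prkar2b, another, had 88.1, 84.9 and 116 FPKM, while the catalytic Prkaca had 17.2, 26.8 and 39.96 FPKM. Of the adenylyl cyclases, Adcy6 had the highest mean at 4.32 ± 2.29 FPKM (SD, n = 3), and Adcy8 was off. Gnas, the stimulatory G protein, was listed at only 0.897, 2.21 and 6.69 FPKM. It overlaps 5 other features in the annotation, and its level is uncertain.

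Of the steroid, prolactin and thyroid receptor list 12 of 17 were on. Esr2 had 19.2, 18.9 and 22.6 FPKM and Esr1 0.256, 0.221 and 0.406 FPKM, so Esr2 was 55.8 to 85.4 times higher. The membrane-bound Pgrmc1 had 207, 169 and 110 FPKM. In the IGF list 13 of 16 were on. The binding proteins Igfbp6, with 103, 97.7 and 26.2 FPKM, and Igfbp2, with 87.3, 67.2 and 44.9 FPKM, were above the receptor Igf1r, with 15.2, 13.1 and 14.6 FPKM, in each library. Igf1 had 4.82, 3.82 and 4.82 FPKM, and Igf2 was listed at 0 in each, as was a protein_coding gene, AC013548.1, that overlaps it. Npr2, the receptor through which Nppc holds the oocyte in meiosis, had 46.6, 29.6 and 33.9 FPKM, and Nppc itself had 28.8, 24.0 and 10.8 FPKM. The oocyte-side connexin Gja4 had 14.3, 11.2 and 10.7 FPKM, below Gja1, while Gja5 and Gjb6 were off.

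Proteases and their inhibitors included some of the most abundant secreted products: 19 of 26 were on. Cst3, cystatin C, had 754, 429 and 193 FPKM, and Ctsd, cathepsin D, had 517, 297 and 111 FPKM. Plau, the urokinase activator of plasminogen, had 384, 230 and 263 FPKM and Plat, the tissue type, 6.82, 7.48 and 15.8 FPKM. Timp1 exceeded Timp2 18.6 to 50.9 times. Mmp9 had 0.114, 0.1003 and 0.0777 FPKM and Mmp13 was off. In the matrix and basement membrane list 14 of 20 were on, led by Sdc1, a syndecan, with 626, 721 and 636 FPKM, and Sparc, with 144, 124 and 155 FPKM. The collagen IV chains Col4a1 and Col4a2 had means of 44.4 ± 18.9 and 30.2 ± 13.9 FPKM (SD, n = 3), Col4a3 had 0.127 ± 0.0551 and Col4a6 was off.

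Genes of mitosis and DNA replication were on at moderate levels, 25 of 26 with a median of 17.2 FPKM. Pcna had 108, 109 and 86.4 FPKM, Cdc20 48.9, 73.7 and 58.7 FPKM and Mcm7 51.9, 53.6 and 33.3 FPKM. Mki67 had 11.3, 10.1 and 8.32 FPKM. The low member was Kif11 at 0.461, 0.160 and 0.589 FPKM. Of 15 G1 regulators 12 were on. Cdk4, the kinase that D cyclins activate, had 139, 135 and 99.1 FPKM. Cdkn1a, the p21 inhibitor, had 31.0, 55.4 and 60.5 FPKM and Cdkn1b, the p27 inhibitor, 8.86, 13.5 and 19.2 FPKM. Ccnd2, the FSH-induced D cyclin, had 5.99, 5.71 and 8.68 FPKM, Ccnd3 2.83, 4.34 and 6.14, and Ccnd1 was under 1 FPKM in each library.

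All 77 cytosolic ribosomal protein genes were on, with a median of 584 FPKM, and 41 of them were among the 100 highest genes. Rpl24 and Rpl13a were far below the rest, with means of 13.2 ± 5.67 and 40.3 ± 14.1 FPKM (SD, n = 3). Near-identical pseudogenes exist for many ribosomal proteins, so these levels are uncertain. All 77 were lowest in library 3, in FPKM, against 44.3% of all on genes, with a median log2 ratio of library 3 to the others of -1.53. Of 13 mitochondrially encoded proteins 11 were on. mt-Co1 had 814, 1289 and 6423 FPKM, mt-Cytb 195, 312 and 2868, and mt-Nd4 23.2, 47.3 and 974. mt-Co2 had 87.1, 74.6 and 78.6 FPKM and mt-Co3 72.5, 84.2 and 60.0 FPKM, so these 2 were not raised in library 3 in FPKM. Nuclear copies of mitochondrial sequence make these values uncertain. Among 64 histone genes tied to DNA replication, 15 were on and 40 were low or mixed. Without library 3, 26 of them were on, and under TPM 33 were on, where 11425 of all 22058 genes were on.

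Of the 46 nuclear subunits of oxidative phosphorylation 44 were on. Cox6a1 had 1001, 867 and 490 FPKM, Cox4i1 992, 715 and 258 FPKM and Ndufa2 839, 580 and 133 FPKM. Ndufs3, a core subunit of complex I that every cell with mitochondria uses, was listed at 0 in each library, and so was Kbtbd4, which overlaps it on the opposite strand. A 0 in these tables is therefore no evidence that a gene is silent. Of 18 genes of glycolysis 16 were on. Ldhb had 600, 441 and 182 FPKM, Aldoa 398, 457 and 287 FPKM, and Gapdh only 21.8, 16.8 and 32.7 FPKM. Aldoa exceeded Gapdh 8.79 to 27.2 times. Pseudogene copies of Gapdh are numerous in the mouse, so its level is uncertain. The 2 copies that the deposited tables describe as such summed to at most 0.202 FPKM in a library. In the redox list 23 of 24 were on. Besides Ephx2, Fth1 and Sod1, Ftl1, ferritin light chain, had 1847, 1720 and 522 FPKM, and Gsta4, a glutathione transferase, 1165, 1312 and 501 FPKM. Gsta3 was under 1 FPKM in each library. All 18 chaperones and all 18 translation factors were on, as were all 18 cytoskeleton and housekeeping genes, led by Actb with 775, 1111 and 700 FPKM. Tbp, a common reference gene, had 1.16, 1.26 and 2.03 FPKM.

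Transcripts of the oocyte were present: 20 of 25 were on, against 43.9% of all genes, with a summed level of 611 to 1246 FPKM. Uchl1 had 394, 427 and 138 FPKM, but neurons and other cells use it too. Gdf9, a growth factor of the oocyte, had 138, 122 and 67.8 FPKM, Zp3, of the zona pellucida, 112, 107 and 67.7 FPKM, Padi6 91.6, 85.6 and 55.8 FPKM, and Npm2 95.2, 68.2 and 26.0 FPKM. Bmp15, the partner of Gdf9, had 3.81, 6.28 and 15.9 FPKM, so the Gdf9 to Bmp15 ratio ran from 4.27 to 36.3. Of the 20 on genes 16 were lowest in library 3 in FPKM, against 44.3% of all on genes (21.6% in TPM). Their median log2 ratio of library 3 to the others was -0.77, and -0.40 after correction for gene length. The lowest members were Ddx4, Sohlh1 and Figla, with means of 0.359 ± 0.0791, 0.531 ± 0.430 and 0.955 ± 0.509 FPKM (SD, n = 3). In a bulk sample, fewer cells of a type and less RNA per cell cannot be told apart.

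Red cell transcripts summed to 633 to 4482 FPKM, and 6 of 10 were on, against 43.9% of all genes. Hba-a1, alpha globin, had 2134, 1285 and 249 FPKM, rank 30, and Hbb-bs, beta globin, 1597, 1071 and 252 FPKM. The near-identical Hba-a2 and Hbb-bt stood lower, and reads can be split between such copies. Together the globin genes took 0.308%, 0.203% and 0.0525% of the reads of libraries 1, 2 and 3. Bpgm, which makes the bisphosphoglycerate of red cells, had 25.7, 26.1 and 19.7 FPKM, and Alas2, the erythroid enzyme of haem synthesis, had 11.2, 9.38 and 6.23 FPKM. Other members were low: Slc4a1 had 0.248, 0.109 and 0.0656 FPKM, Klf1 0.132, 0.155 and 0.120, and Epb42 was off.

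Epithelial keratins were on as well. Of 14 genes of the surface epithelium and mesothelium 11 were on, with a summed level of 114 to 324 FPKM. Krt8 had 97.0, 56.4 and 33.4 FPKM, Krt18 76.3, 37.5 and 25.4, Krt19 58.2, 29.5 and 16.7, Lgals7 37.9, 18.5 and 6.97 and Msln, mesothelin, 21.7, 12.3 and 7.59. All 5, the highest of the list, had the same order of libraries, with library 1 the highest and library 3 the lowest. Of the 11 on genes 7 were lowest in library 3 in FPKM, against 44.3% of all on genes, and 1 was highest there. Their median log2 ratio of library 3 to the others was -0.98, and -0.47 after correction for gene length. The mesothelial Lrrn4 was low or mixed at 0.127, 0.143 and 0.333 FPKM and Muc16 was off at 0.0613, 0.0651 and 0.0365 FPKM. The source of this signal was not tested.

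Theca, stromal, endothelial and macrophage lists were on in part, against 43.9% of all genes. Of the theca list 9 of 17 were on, and that count includes Star, Lhcgr and Wt1, which granulosa cells make. The theca count depends on the threshold: 15 of 17 were on at 0.5 FPKM, 14 by a mean of 1 FPKM and 16 under TPM, where 11014, 10520 and 11425 of all 22058 genes were on. Insl3, the hormone particular to theca cells, was low or mixed with 4.54, 4.84 and 0.956 FPKM, and Gli1 had 0.148, 0.190 and 0.321 FPKM. Of the stromal and smooth muscle list 7 of 17 were on, and 11 under TPM, led by Mgp with 150, 95.0 and 54.4 FPKM and Acta2 with 83.2, 37.1 and 27.2 FPKM. Notch3 and Cspg4, of pericytes, were under 0.4 FPKM in each library. Of the endothelial list 8 of 16 were on at low levels: Sox18 had 4.91, 6.46 and 9.84 FPKM, Cdh5 1.51, 1.70 and 7.22 FPKM, Pecam1 1.21, 1.01 and 1.41 FPKM, and Vwf 0.151, 0.0700 and 0.0399 FPKM. The whole endothelial list summed to 25.4 to 39.3 FPKM.

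Of the macrophage list 8 of 16 were on, summing to 61.9 to 113 FPKM. Lyz2 had 31.2, 39.8 and 22.3 FPKM, C1qb 20.4, 17.8 and 9.43 FPKM and C1qa 19.5, 20.5 and 7.31 FPKM. Cd68 had 5.63, 4.42 and 5.43 FPKM. Csf1r, the receptor that macrophages depend on, had 0.827, 1.14 and 1.01 FPKM, and Ptprc, the common leukocyte antigen, was off at 0.0110, 0.0162 and 0.0575 FPKM. Of 14 lymphocyte genes 1 was on, 7 were low or mixed and 6 were off. Without library 3, 2 were on. The gene on was Lck, with 2.12, 2.06 and 1.13 FPKM. Cd3d, Cd3g and Cd8a were off, and Cd3e was listed at 0. Of 13 neutrophil and mast cell genes, Camp and S100a9 were on, with means of 3.70 ± 1.199 and 3.15 ± 1.81 FPKM (SD, n = 3), while Ly6g, Elane and Fcer1a were listed at 0.

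**Figure D3:**
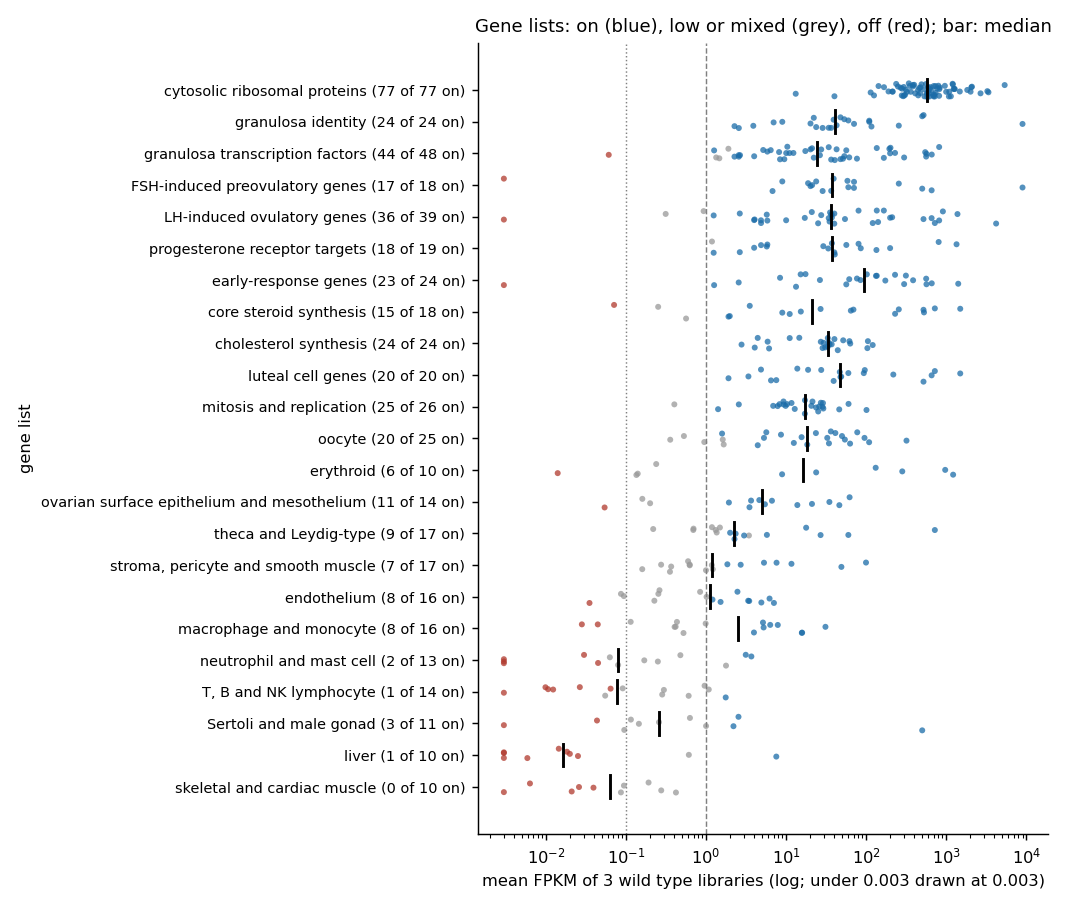
Mean FPKM over the 3 libraries, on a log axis, of each gene of 23 lists; blue points are on, grey points low or mixed and red points off, and a black bar marks the median of a list. The granulosa, ovulatory, steroid and cholesterol lists lie mostly to the right of the dashed line at 1 FPKM, while the lymphocyte, neutrophil, liver and muscle lists lie mostly to its left.

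Genes of tissues that should not be in the sample were mostly low or off. Of all genes, 43.9% were on, 24.1% were low or mixed and 31.9% were off. None of 10 skeletal and cardiac muscle genes was on, and the list summed to 0.276 to 2.29 FPKM. Of 10 liver genes 1 was on: Ahsg, fetuin A, with 11.1, 7.14 and 4.51 FPKM, while Alb was off. Of 10 neuronal genes Tubb3, with 11.9, 10.7 and 10.3 FPKM, and Snap25, with 3.03, 4.16 and 7.47 FPKM, were on, and Snap25 is also on the list of LH-induced genes. Of 9 matched pancreas, gut and kidney genes Vil1 was on at 2.33, 2.07 and 2.05 FPKM, and Cela3b was low or mixed at 7.04, 1.92 and 0.991 FPKM, so that 2 were on without library 3. Of 7 pituitary genes 2 were on: Pomc had 3.88, 4.26 and 1.53 FPKM and Lhb 1.69, 2.01 and 1.76 FPKM. Fshb and Prl were listed at 0. Of 11 genes of the male gonad list 3 were on: Amh, which both sexes make, Dhh and Ptgds. Sox9, the testis factor that Foxl2 opposes, was low or mixed at 0.570, 1.06 and 1.39 FPKM, Dmrt1 was off and Rhox5 was listed at 0. Of 11 oviduct and ciliated cell genes Tppp3 was on and Pax8 was listed at 0. Of 10 adipocyte genes Pparg, Retn, Lpl and Fabp4 were on, and Adipoq, Plin1, Cidec, Lep and Cfd were off.

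By chromosome, the share of genes on ran from 32.2% on X to 52.6% on chromosome 8 among chromosomes other than Y and the mitochondrial one. Of 183 genes assigned to chromosome Y in the annotation 1, Gm47283, was on, with 59.4, 58.1 and 15.1 FPKM, and 181 were off. Whether the Gm47283 reads come from sequence particular to Y was not tested.

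The 3 libraries differed by more than read counting can give. A Poisson dispersion chi-square test with Benjamini-Hochberg adjustment was run on the reads recovered from the FPKM, over 13982 genes with at least 20 reads in all. It put 11525 of them, 82.4%, beyond counting error at an adjusted p under 0.05. Without library 3, 6558 of 13270 genes passed, which is 49.4%. Among genes over 1000 FPKM all 37 passed, and among genes of 1 to 10 FPKM 86.1% of those tested passed. Of the granulosa identity list 22 of 24 passed and of the LH-induced list 34 of 38 tested, both near the background, so passing says little of a list. The 4384 genes over 10 FPKM had a median coefficient of variation of 26.1%, with quartiles of 15.1% and 39.2%. For Inha it was 31.8% where counting alone gives 0.210%, for Tnfaip6 15.0%, for Star 14.3%, for Hsd3b1 10.9% and for Foxl2 6.37%.

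The steadiest genes over 10 FPKM were Dars, an aminoacyl-tRNA ligase, with 14.1 FPKM in each library, Nr5a1, Tmem206, Col18a1 and Rsrp1. Their coefficients of variation of 0.0433% to 0.657% were below what counting gives for each, such as 3.02% for Dars, and they were picked as the lowest of 4384 genes. The most variable were mt-Nd4, mt-Nd2, mt-Cytb, mt-Nd1 and Sox4. Sox4, a transcription factor, had 5.42, 7.82 and 44.3 FPKM, so library 3 was 8.16 times library 1. The granulosa factors Gata4 and Gata6 had the same order of libraries, with ranges of 4.35 and 2.87 times.

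**Figure D4:**
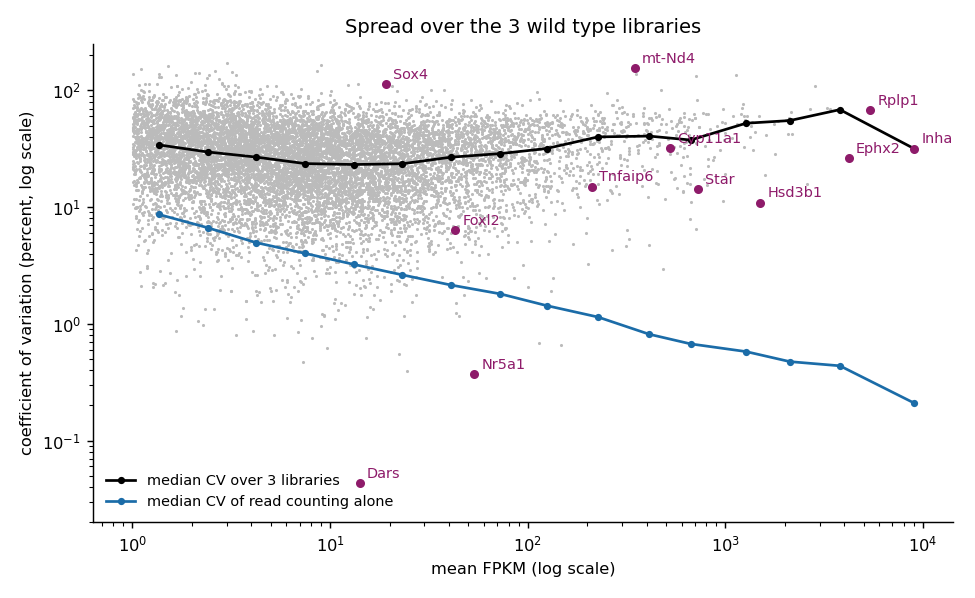
Coefficient of variation over the 3 libraries against mean FPKM for protein_coding genes above 1 FPKM, both on log axes; the black line is the median in bins of the mean and the blue line the median that read counting alone gives. The black line stays above the blue one throughout, Foxl2 lies at 6.37% and Inha at 31.8%, and mt-Nd4 and Sox4 lie at the top.

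The departure of library 3 followed gene length. In the shortest of 5 bins of on genes by length, 243 to 2263 bases, the median log2 ratio of library 3 to the mean of libraries 1 and 2 was -0.78, and in the longest bin, 6957 bases and over, it was 0.49. The slope of log2 FPKM on log2 length over on genes was -0.97 in library 1, -0.91 in library 2 and -0.51 in library 3. Over all on genes the ratio had a median of -0.01 in FPKM and 0.58 after each library was rescaled to TPM. Relative to that median, ribosomal proteins (-1.53), erythroid genes (-2.01) and nuclear oxidative phosphorylation subunits (-1.07) were lower in library 3 and mitochondrially encoded proteins (2.22) higher. The TPM rescaling moves the ratios of all genes by nearly the same amount, so it is no further test of this. The granulosa identity list, with 0.11 in FPKM and 0.70 in TPM, and the LH-induced list, with 0.10 and 0.70, lay near the median of all on genes. The core steroid list was at -0.50 in FPKM and 0.10 in TPM, below that median. After correction for the trend on gene length the medians were -1.06 for ribosomal proteins, -0.84 for erythroid genes, -0.28 for oxidative phosphorylation subunits, -0.25 for the core steroid list and 3.24 for mitochondrially encoded proteins. What set library 3 apart was not tested.

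**Figure D5:**
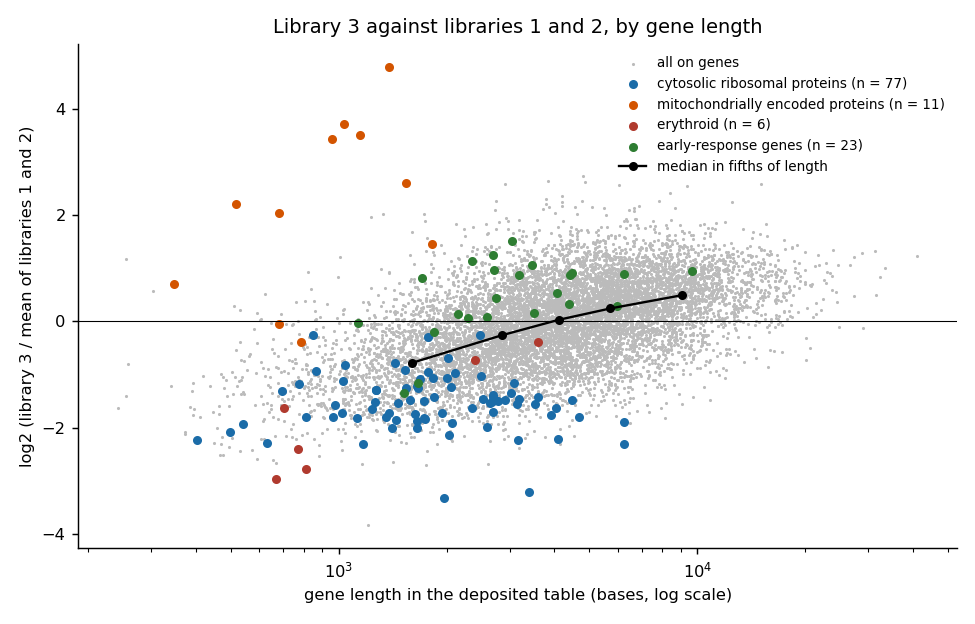
The log2 ratio of library 3 to the mean of libraries 1 and 2 against gene length on a log axis for all genes on, with ribosomal proteins, mitochondrially encoded proteins, erythroid and early-response genes in colour and the median in 5 bins of length in black. The black line runs from -0.78 to 0.49, all 77 ribosomal proteins lie below 0, and most mitochondrially encoded proteins lie above 1.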

How the data were processed

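RNA of granulosa cells was sequenced from 3 wild type libraries prepared with the Illumina TruSeq kit. Per the submitters' processing notes, HISAT2 2.0.5 and mm10 were used; neither the counting tool nor the annotation release is named there. The authors deposited FPKM per gene with gene length, position and biotype. FPKM times gene length came out as whole multiples of a single step per library for 100.0% of values within 0.001 of a read, which gave back read numbers; these served for depth and for the Poisson dispersion chi-square test, not for a comparison of groups. Depth was 16609477 to 19465847 reads.

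Genes were called on (1 FPKM) or off (0.1 FPKM) in every library. The 51 gene lists and the members were chosen with earlier results of these data known. Genes named are the 20 highest, the 5 markers, up to 5 highest and 3 lowest of each list, the 5 most and 5 least variable over 10 FPKM and the 3 nearest in rank to each marker, of which a few are not reported here; other members of the lists were named after their values were seen. A symbol listed more than once took its most abundant row. Thresholds, TPM, left-out libraries, read shares and a length correction were tried as alternatives. The dispersion test was checked on simulated Poisson reads with the library scaling that the test itself uses. Of 100 genes changed by 2.0 times in library 3, 87 were recovered, and of 100 changed by 1.5 times, 63. Of 13807 unchanged genes 9 were called. The simulated reads held no trend on gene length, so they do not show how the test behaves on these libraries. Python 3.11.15 with numpy 2.4.6, pandas 2.3.3, scipy 1.17.1 and matplotlib 3.10.9 was used.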

Additional observations from a re-analysis of the deposited data

How the results depend on the processing

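The number of genes on lay between 8110 and 12671 under other thresholds, TPM and a minimum of 10 reads, and between 9832 and 9962 with a library left out; the number off lay between 4900 and 7454. None of these moved by over 1.5 times. Of the 20 highest genes, 10 remained when mitochondrially encoded and ribosomal protein genes were removed, since that removes 10 of them, and 17 to 19 with a library left out. The 10 highest genes held 6.55% of reads in place of 10.9% of FPKM, and 9.57% of FPKM without mitochondrially encoded and ribosomal protein genes. For the 100 highest genes these shares were 24.0% and 29.0%. Genes beyond counting error numbered 6558 to 10383 with a library left out, the lowest without library 3. After correction for gene length, the median log2 ratio of library 3 was 3.24 in place of 2.22 for mitochondrially encoded proteins, and the granulosa identity list turned from 0.11 to -0.052; the cause was not tested.

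Under TPM, 16 of 17 theca genes and 11 of 17 stromal genes were on, and 33 of 64 replication-dependent histones in place of 15. Of all 22058 genes 11425 were on there, so 1 TPM was a lower bar than 1 FPKM. Counts for lists near 1 FPKM therefore depend on the scale and the threshold. Inha stayed at rank 1 and Ephx2 at rank 2 or 3 under each alternative. Depth limits genes under about 0.1 FPKM, and overlapping genes or near-identical copies limit others. No paired analysis was possible because there is a single group and no comparison between groups.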
